A study of Ovis aries with 20 samples.

Results

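Transcripts of 5 genes of the actin cytoskeleton and the mesenchymal filament system were followed in the newborn sheep heart: ACTG1, CFL1, RAC1, VIM and S100A4. The members were all probes whose gene name, gene identifier or description in the array files named one of these genes, which gave 9 of the 15008 probes on the array. Across the array 990 genes could be named. ACTG1 had 3 probes, CFL1 and VIM had 2 each, and RAC1 and S100A4 had 1 each. The probe with the highest mean signal stood for its gene, and the other probes were used to check it.

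Cytoplasmic actin polymerises into filaments that shape cells, carry adhesion and divide the cell body after mitosis. ACTG1 encodes cytoplasmic gamma-actin, the filament subunit itself. RAC1 is a small GTPase that promotes branched actin growth at the cell edge, and CFL1 encodes cofilin, which binds actin filaments and severs them. VIM encodes vimentin, the intermediate filament of fibroblasts, endothelium and other mesenchymal cells, and S100A4, also called fibroblast-specific protein, is a small calcium-binding protein that binds non-muscle myosin. ACTG1, CFL1 and RAC1 are made in nearly all cells, muscle cells included, whereas in the heart VIM and S100A4 are known mainly from the cells between the muscle fibres. The contractile filaments of heart muscle use other actins.

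Samples came from singleton lambs of 10 ewes, 5 infused with cortisol at 1 mg/kg/day from about day 115 of pregnancy up to delivery and 5 infused with vehicle over the same time. Left ventricle (LV) and interventricular septum were taken from the lambs at 10 to 480 minutes after birth, giving 5 samples for each treatment in each wall (LV control, LV cortisol, and the same for septum). The titles of all 20 samples carry the word telemetry, which the labels do not explain, and breed, sex and the time after birth of each lamb were not among the labels used here. The labels do not say which LV and septum samples came from the same lamb. Across probes, the residuals of an LV and a septum sample that share treatment and number correlated at 0.447 to 0.813, which was the best match in 10 of 10 cases, and such samples were taken as 1 lamb. Each sample was 1 one-colour array, so the number of arrays limits the precision, and levels are log2 signals relative to the 75th percentile of the array (relative log2 signal). That percentile was 99.2 to 441 intensity units, and 57.9% to 72.1% of spots were well above background. MB, the muscle oxygen carrier, at a mean relative log2 signal of 8.46 and MYH7, the slow muscle myosin heavy chain, at 3.84 showed heart muscle RNA, and HBB, a red cell globin, stood at 4.65. Slide 1 held only septum arrays and slide 3 only LV arrays, slide 2 held both, and slide 4 held only the LV array of cortisol lamb 4.

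Probe sequences show how far the probes of a gene are separate measurements, so the probe pairs of VIM and CFL1 and the ACTG1 probe that comes from a source sequence of its own are printed here from the array files. Capitals mark the bases that both probes of a gene share, and the ACTG1 probe, which overlaps no other, is in lower case throughout.
VIM probe 1: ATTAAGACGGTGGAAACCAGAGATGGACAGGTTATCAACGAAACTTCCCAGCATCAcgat
VIM probe 2: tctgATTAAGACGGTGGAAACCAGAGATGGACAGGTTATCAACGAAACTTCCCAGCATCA
CFL1 probe 1: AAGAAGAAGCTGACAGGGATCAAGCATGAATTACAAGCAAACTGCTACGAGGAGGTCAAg
CFL1 probe 2: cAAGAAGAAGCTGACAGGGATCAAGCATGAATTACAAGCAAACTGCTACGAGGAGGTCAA
ACTG1 probe 3: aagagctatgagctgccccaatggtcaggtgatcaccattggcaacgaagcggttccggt
The probe pair of VIM shares 56 of 60 bases and that of CFL1 shares 59, so each pair repeats 1 measurement on 1 stretch of transcript. ACTG1 probes 1 and 2 begin at bases 518 and 603 of 1 expressed sequence tag, probe 3 comes from another source sequence, and no 2 of them share more than 6 bases in a row. The S100A4 probe holds the polyadenylation signal motif AATAAA at its base 36 and ends in 5 A, a feature of the transcript's very 3' end. The motif, read on the probe strand, occurs in 5.63% of the 15008 probes. None of the 9 probes shared a run of 20 bases with a probe of another gene. Homology to actin transcripts without a probe on the array was not examined, and the files give no genome position.

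Vimentin was the most abundant signal of the 5 genes relative to other probes. Its mean relative log2 signal over 20 arrays was 6.42 ± 0.58 (SD), higher than 99.1% of probe means. RAC1 followed at 4.57 ± 0.31 and ACTG1 at 4.45 ± 0.47, above 97.4% and 97.2% of probe means. Probes 2 and 3 of ACTG1 read 3.31 ± 0.57 and 3.03 ± 0.52. CFL1 lay lower at -0.92 ± 0.57, above 66.4% of probe means, and S100A4 lay near the middle of the array at -2.29 ± 1.95, above 52.8%. Signals of different probes are not a measure of relative transcript number, so this order describes the probes. The neighbours RAC1 and ACTG1 differed by less than the spread of either.

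Detection was complete for 8 of the 9 probes, which were well above background on 20 of 20 arrays. The S100A4 probe was well above background on 17 arrays, with 3 of 5 in LV control, 5 of 5 in LV cortisol, 5 of 5 in septum control and 4 of 5 in septum cortisol. Its scanner-reported spot error reached 98.5% of the signal, against at most 10.6% for the other probes. No member spot was saturated or marked as an outlier. The 3 readings that were not well above background were its 3 lowest values.

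**Figure D1:**
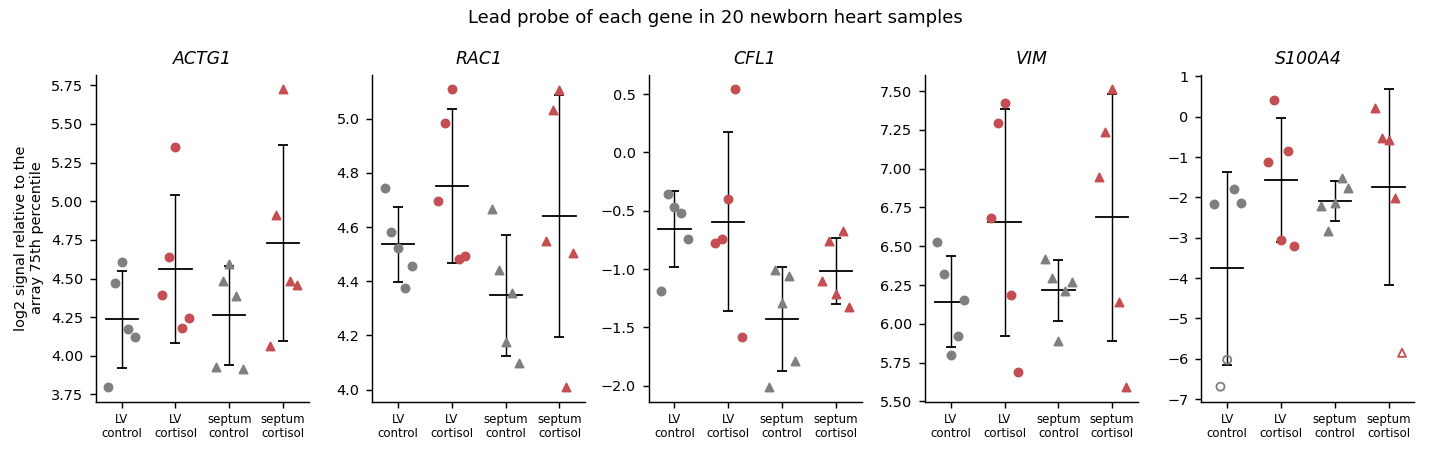
Relative log2 signal of the lead probe of each gene in the 4 groups of 5 samples; circles are LV, triangles septum, grey control and red cortisol, open symbols mark arrays where the probe was not well above background, and bars are the mean ± SD. Treatment groups overlap in every panel, the cortisol groups spread more widely than control for VIM, and the 3 open S100A4 symbols lie lowest in their panel.

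The comparison of cortisol with control samples asks whether raised maternal cortisol in late gestation left the cytoskeletal transcripts of the newborn heart changed. None of the 5 genes passed the test in LV or in septum, and control and cortisol values overlapped for all 9 probes. The differences of the lead probes were nevertheless above 0 for all 5 genes in both regions, where 49.1% of tested probes in LV and 54.7% in septum had a difference above 0. By limma, 0 of 9791 probes passed at a Benjamini-Hochberg adjusted p under 0.05 in LV and 0 of 10369 in septum, which is 0% of the background in each, and 508 and 385 probes had an unadjusted p under 0.05. In bulk tissue, fewer cells of a type and less RNA per cell cannot be told apart, for these and all later differences.

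Gamma-actin levels in LV control samples 1 to 5 were 3.80, 4.47, 4.61, 4.18 and 4.12. In LV cortisol they were 4.39, 4.64, 5.35, 4.18 and 4.24. Only cortisol lamb 3, and by a small margin lamb 2, lay above all LV controls. In septum control ACTG1 was 3.93, 4.48, 4.59, 4.39 and 3.91, and in septum cortisol 4.06, 4.91, 5.72, 4.49 and 4.46. Cortisol lambs 2 and 3 were again the highest. The ACTG1 difference was 0.33 ± 0.25 (SE; 95% interval -0.23 to 0.88; limma adjusted p = 0.877) in LV and 0.47 ± 0.30 (-0.18 to 1.12; adjusted p = 0.818) in septum, with 4 of 5 cortisol samples above the control mean in each region. Leaving out 1 array at a time gave 0.13 to 0.42 in LV and 0.22 to 0.63 in septum, the lowest of each without cortisol sample 3.

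The other ACTG1 probes gave a larger difference. Probe 2 differed by 0.72 ± 0.27 in LV and 0.57 ± 0.32 in septum, and probe 3 by 0.72 ± 0.30 and 0.51 ± 0.23. All 5 cortisol samples of each region lay above the control mean on both probes, and the unadjusted limma p was 0.0221 and 0.0365 in LV and 0.101 and 0.0474 in septum, with adjusted p of 0.877 and 0.818. Averaged over both regions of each lamb, the 3 probes differed by 0.40 ± 0.26, 0.65 ± 0.26 and 0.62 ± 0.23, each at an adjusted p of 0.812. In LV the probes disagreed on 1 array. Probe 1 correlated with probes 2 and 3 at r = 0.511 and 0.429 across the 10 LV arrays but at 0.979 and 0.950 across the 10 septum arrays. The LV array of cortisol lamb 4, alone on its slide, read 4.18 on probe 1, 4.44 on probe 2 and 4.38 on probe 3, whereas probe 1 was the brightest of the 3 on each of the other 19 arrays. Without that array the LV correlations were 0.957 and 0.965, and the LV differences of the 3 probes were 0.42 ± 0.26, 0.52 ± 0.22 and 0.46 ± 0.23 (adjusted p = 0.622, 0.583 and 0.588).

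**Figure D2:**
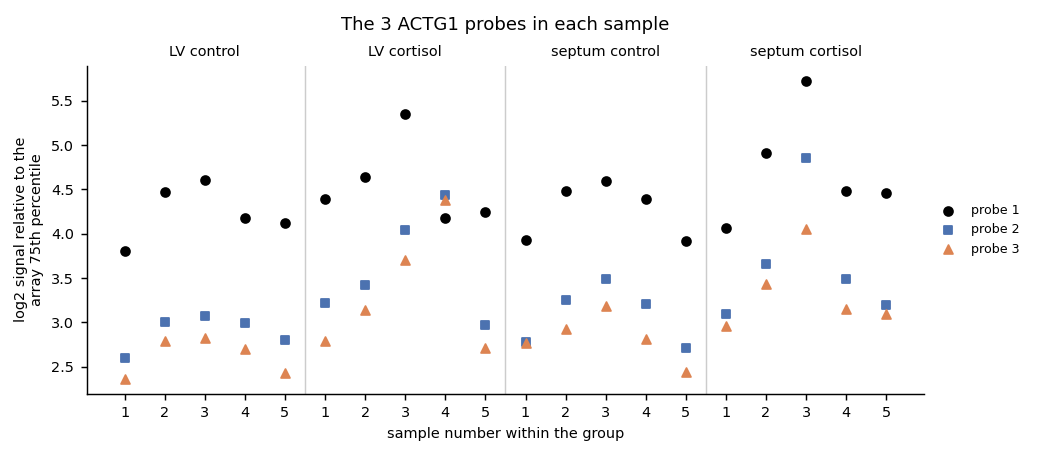
Relative log2 signal of the 3 ACTG1 probes in each of the 20 samples, by group and sample number. Probe 1 lies above probes 2 and 3 everywhere except in sample 4 of LV cortisol, where it reads 4.18 against 4.44 and 4.38.

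RAC1 varied least of the 5 genes. Its LV control levels were 4.74, 4.58, 4.52, 4.37 and 4.46, and its LV cortisol levels 4.70, 4.98, 5.11, 4.48 and 4.50. In septum the control levels were 4.67, 4.44, 4.17, 4.36 and 4.10 and the cortisol levels 4.55, 5.03, 5.11, 4.01 and 4.50. Cortisol lambs 2 and 3 lay above all controls in both regions, and lambs 1, 4 and 5 did not. The difference was 0.22 ± 0.18 in LV (95% interval -0.17 to 0.61; adjusted p = 0.883) and 0.29 ± 0.22 in septum (-0.20 to 0.79; adjusted p = 0.818).

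Vimentin showed the same 2 lambs at the top. LV control levels were 6.53, 6.32, 5.80, 5.92 and 6.16, and LV cortisol levels were 6.68, 7.29, 7.42, 6.19 and 5.69. Septum control levels were 6.42, 6.30, 5.89, 6.21 and 6.27, and septum cortisol levels were 6.94, 7.24, 7.51, 6.14 and 5.60. Cortisol lambs 1, 2 and 3 exceeded every control in both regions, lamb 4 lay within the control range in both, and lamb 5 had the lowest level of either region. The SD was 0.73 and 0.80 in the cortisol groups against 0.29 and 0.20 in the controls. The mean difference of 0.51 ± 0.33 in LV (95% interval -0.20 to 1.22; adjusted p = 0.877) and 0.47 ± 0.33 in septum (-0.27 to 1.21; adjusted p = 0.818) thus joins 3 lambs that were high to 2 that were not. The second VIM probe differed by 0.59 ± 0.34 and 0.57 ± 0.32. Quantile normalization gave VIM 0.29 in LV and 0.19 in septum, and the authors' deposited values gave 0.21 and 0.22. Leaving out 1 array at a time gave 0.32 to 0.75 in LV and 0.26 to 0.74 in septum, the lowest without cortisol sample 3 and the highest without cortisol sample 5 in each.

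Slide moved with that split in both regions, and array brightness did so in LV. The LV arrays of cortisol lambs 1, 2 and 3 were all on slide 3, and their 75th percentiles, 99.8, 110.2 and 99.2 intensity units, were among the 4 lowest of the series, while lambs 4 and 5 stood at 402 and 272 on slides 4 and 2. In septum the arrays of cortisol lambs 1, 2 and 3 were on slide 1 at 177, 304 and 155 intensity units, and those of lambs 4 and 5 on slide 2 at 256 and 292, so lamb 2 had the brightest of these 5 arrays. Within slide 3 alone VIM differed by 0.88 and within slide 2 alone by -0.29, which sets 1 cortisol array against 2 controls. In septum, within slide 1 alone it differed by 0.92 and within slide 2 alone by -0.21. ACTG1 in LV likewise differed by 0.65 on slide 3 and -0.12 on slide 2. The part of slide and brightness in these differences was not tested, and with slide as a fixed block the VIM difference was 0.52 in LV (adjusted p = 0.618) and 0.47 in septum (adjusted p = 0.678).

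Cofilin gave no common direction in LV. Its LV control levels were -1.18, -0.35, -0.47, -0.52 and -0.75 and its LV cortisol levels -0.78, -0.74, -0.40, 0.54 and -1.58. Septum control levels were -2.01, -1.01, -1.29, -1.06 and -1.79, and septum cortisol levels were -1.10, -0.76, -1.22, -0.68 and -1.33. The LV cortisol group held both the highest and the lowest LV value. The difference was 0.06 ± 0.34 in LV (95% interval -0.69 to 0.81; adjusted p = 0.980) and 0.41 ± 0.23 in septum (-0.10 to 0.93; adjusted p = 0.818), where all 5 cortisol samples lay above the control mean. The LV difference was -0.08 ± 0.35 on probe 2, -0.22 without cortisol sample 4 and -0.07 without control sample 1.

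S100A4 had the widest interval, and its difference in LV rested on 2 controls that were not well above background. LV control levels were -2.16, -6.69, -6.03, -1.79 and -2.13, of which samples 2 and 3 were not well above background. LV cortisol levels were -1.13, 0.42, -3.05, -0.85 and -3.22. Samples 3 and 5 of that group lay below the 3 measurable controls. Septum control levels were -2.21, -2.82, -2.13, -1.52 and -1.77, and septum cortisol levels were 0.22, -0.54, -0.57, -2.02 and -5.85, the last not well above background. In septum, cortisol lambs 1, 2 and 3 exceeded every control, as for VIM. The difference was 2.19 ± 1.08 in LV (95% interval -0.18 to 4.56; adjusted p = 0.877; 5 of 5 above the control mean) and 0.34 ± 0.95 in septum (-1.76 to 2.43; adjusted p = 0.936; 4 of 5). Over the arrays where the probe was well above background, the LV difference was 0.46 ± 0.76 (3 control and 5 cortisol samples with means of -2.02 and -1.57; limma adjusted p = 1.00) and the septum difference 1.37 ± 0.42 (5 and 4 samples; adjusted p = 0.555), which leaves out the lowest values by their level. Over all arrays it was 0.61 in LV with normexp background correction, and in septum it was -0.15 without cortisol sample 1, 1.89 within slide 1 and -1.98 within slide 2.

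**Figure D3:**
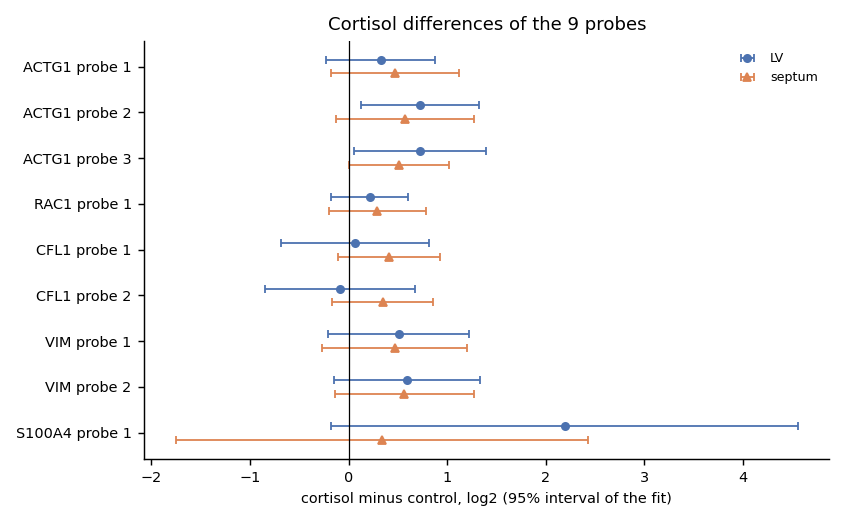
Difference of cortisol from control on the log2 scale with its 95% interval from the limma fit, for the 9 probes in LV (blue circles) and septum (orange triangles), 5 against 5 samples each. All lead probes lie above 0, from 0.06 for CFL1 to 2.19 for S100A4 in LV, and none passed after adjustment.

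The cortisol effect did not differ detectably between the regions for any of the 5 genes. By limma 0 of 10069 probes passed for that difference, 0% of the background, and 38 had an unadjusted p under 0.05. The members ranged from -1.85 ± 1.55 (septum minus LV; 95% interval -5.10 to 1.39) for S100A4 to 0.35 ± 0.43 (-0.54 to 1.24) for CFL1, each at an adjusted p of 1.00. These SEs and intervals are from the unpaired fit, which does not use the pairing of LV and septum within a lamb. The lamb block left 0 probes passing as well, and its intervals are not given here. Averaged over both regions, the lead probes of CFL1, RAC1, VIM and S100A4 differed by 0.24 ± 0.26, 0.25 ± 0.19, 0.49 ± 0.32 and 1.27 ± 0.85 (52.2% of tested probes lay above 0), with 0 of 10069 probes called, 516 at an unadjusted p under 0.05, and adjusted p of 0.812 to 0.856.

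The comparison of septum with LV asks whether the 2 walls of the heart differ in these transcripts. Cofilin was lower in septum by 0.60 ± 0.21 (95% interval -1.05 to -0.15) on the unpaired fit of 20 arrays, and its limma adjusted p of 0.214 did not pass. Of 10069 probes, 40 (0.397%) were called, 3 higher (0.0298%) and 37 lower (0.367%) in septum. With the lamb as a block, the same difference had an SE of 0.13 and an adjusted p of 0.0121, so CFL1 fell under pairing. That fit called 1850 probes (18.4%), 892 higher (8.86%) and 958 lower (9.51%), and the cofilin call is to be read against this share. Probe 2 of CFL1, which covers nearly the same bases, fell by 0.54 ± 0.11 (adjusted p = 0.00845).

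The paired cofilin difference was most uniform in the control lambs. Septum was lower than LV in 5 of 5 control lambs, by -1.04 to -0.54 and on average -0.78 ± 0.19 (SD). In cortisol lambs it was lower in 4 of 5, ranging from -1.22 to 0.26 with a mean of -0.42 ± 0.60. The call was lost among cortisol lambs alone (-0.42; adjusted p = 0.543) and among the 3 lambs with both arrays on slide 2 (-0.34; adjusted p = 0.382). Those 3 lambs differed by -0.82 and -1.04 (controls 3 and 5) and 0.26 (cortisol 5), a plain mean of -0.53 ± 0.69 (SD). The fit weighs the treatments equally, so -0.34 rests on 1 cortisol lamb as much as on 2 controls. Leaving out each lamb in turn gave -0.68 to -0.50 with adjusted p of 0.0038 to 0.0321. Since slides 1 and 3 each hold 1 region, slide and region could be told apart only through slide 2. In the unpaired fit CFL1 differed by -0.29 (adjusted p = 0.909) with slide as a fixed block and by -0.17 (adjusted p = 0.855) on slide 2 alone, against -0.60 without the block.

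**Figure D4:**
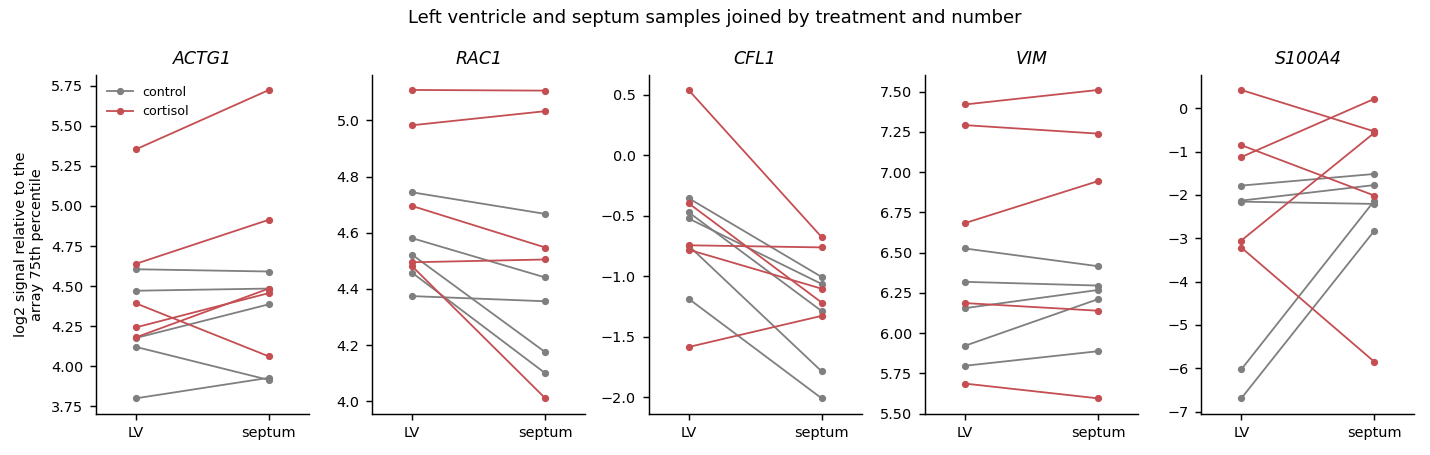
Relative log2 signal in LV and septum of the lead probe of each gene, with lines joining samples of the same treatment and number (grey control, red cortisol, 5 each). CFL1 falls from LV to septum in 9 of 10 lambs, while VIM lines run nearly level and S100A4 lines cross.

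Normexp background correction, an alternative, gave a cofilin difference of -0.35 (adjusted p = 1.00) in the paired fit. Under it, 2 septum arrays, control 4 and cortisol 1, had the middle 50% of their probes compressed to within 0.16 and 0.13 log2 units, against 1.36 to 2.88 on the other 18 arrays and 4.80 to 5.92 for the same 2 arrays in processed signal. With both lambs left out, the normexp difference of CFL1 was -0.53 ± 0.11 (adjusted p = 0.00749), beside a median of -0.12 over all probes, and the processed signal gave -0.64 ± 0.16 (adjusted p = 0.0387).

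The other genes did not pass between the walls. RAC1 was lower in septum in 8 of 10 lambs, by a mean of 0.15 on the log2 scale (-0.15 ± 0.07 SE in the paired fit; adjusted p = 0.148). VIM differed by 0.05 ± 0.06 (adjusted p = 0.578) and lay higher in septum in 5 of 10 lambs, with a range of -0.11 to 0.29. ACTG1 differed by 0.10 ± 0.08 (adjusted p = 0.402) and was higher in 7 of 10, and S100A4 differed by 0.74 ± 0.56 (adjusted p = 0.368) with a range of -2.64 to 3.89. Unpaired, these 4 had adjusted p of 0.726 to 0.964.

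Vimentin, RAC1 and gamma-actin levels of a lamb were alike in its 2 walls. Between the LV and septum samples of 10 lambs VIM correlated at r = 0.972 (Spearman rho 0.964; permutation p = 1e-05, adjusted over 5 genes 5e-05), and at 0.920 without the 2 lambs farthest from the LV median. The p of 1e-05 is the smallest that 100000 resamples can give. For ACTG1 r was 0.912 (rho 0.867; permutation p = 0.00111, adjusted 0.00185), and 0.652 without the 2 farthest. RAC1 had r = 0.905 (rho 0.867; permutation p = 0.00064, adjusted 0.0016), and 0.669 without the 2 farthest. CFL1 at r = 0.594 (rho 0.673; permutation p = 0.0727, adjusted 0.0909) and S100A4 at r = 0.410 (rho 0.697; permutation p = 0.239, adjusted 0.239) did not pass on r. After the mean of each treatment was removed, with permutation within treatments, r was 0.967 for VIM, 0.893 for ACTG1, 0.884 for RAC1 and 0.663 for CFL1, all 4 at an adjusted p of 0.00842 or less, and 0.417 for S100A4 (adjusted p = 0.121). The pairs of samples were formed by treatment and number and taken as 1 lamb because of their shared deviations over all probes. This agreement is therefore not independent of that choice. Slide was split alike in both walls, since lambs with an LV array on slide 3 had their septum array on slide 1. The other lambs had their septum array on slide 2 and, except cortisol lamb 4, their LV array there too. Slide means were not removed, so the parts of lamb and slide in this agreement were not tested.

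RAC1 and vimentin covaried in LV, and vimentin and S100A4 in septum. Of 20 relations, the 10 pairs of genes in each of 2 regions, 2 passed a two-sided permutation test of Pearson's r after adjustment over the 20. Across the 10 LV arrays RAC1 and VIM had r = 0.938 (permutation p = 0.00024, adjusted 0.0048) and Spearman's rho 0.806 (p = 0.00732, adjusted 0.146). Without the 2 arrays farthest from the RAC1 median r was 0.759. Across the 10 septum arrays the pair had r = 0.770 (permutation p = 0.00994, adjusted 0.0663; rho 0.745, adjusted 0.172), which fell to 0.295 without the 2 farthest arrays and so rested on them. With treatment means removed r was 0.921 in LV (permutation adjusted p = 0.082) and 0.722 in septum (adjusted p = 0.482). Among the 6 arrays of 1 slide it was 0.985 in LV (exact permutation, adjusted p = 0.0556) and 0.899 in septum (exact permutation, adjusted p = 0.208).

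VIM and S100A4 had r = 0.791 across the 10 septum arrays (permutation p = 0.00377, adjusted 0.0377; rho 0.648, p = 0.049, adjusted 0.327), and 0.848 without the 2 arrays farthest from the VIM median. Across the 10 LV arrays r was 0.394 (permutation p = 0.255, adjusted 0.567; rho 0.358, adjusted 0.736), and 0.311 without the 2 farthest. These correlations include the S100A4 values that were not well above background, LV control samples 2 and 3 and septum cortisol sample 5. The difference between the regions was not tested. With treatment means removed r was 0.825 in septum (permutation adjusted p = 0.418) and 0.208 in LV, with slide means removed 0.694 (permutation adjusted p = 0.192) and 0.349, and among the 6 arrays of slide 1 it was 0.751 (exact permutation, adjusted p = 0.343). Under normexp r in septum was -0.149, and 0.900 once the 2 compressed arrays were left out (permutation adjusted p = 0.0715), where the processed signal gave 0.806 (permutation adjusted p = 0.114). Leaving out each septum array in turn gave r of 0.774 to 0.823.

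Neither vimentin nor S100A4 moved with gamma-actin beyond the threshold in the processed signal. ACTG1 and VIM had r = 0.590 across LV arrays (permutation p = 0.0721, adjusted 0.24; rho 0.406, adjusted 0.736) and 0.539 across septum arrays (permutation p = 0.105, adjusted 0.3; rho 0.188, adjusted 0.892), and in septum r was 0.065 without the 2 arrays farthest from the ACTG1 median. ACTG1 and RAC1 had r = 0.670 in LV (permutation p = 0.034, adjusted 0.17; rho 0.600, adjusted 0.366; 0.728 without the 2 farthest) and 0.611 in septum (permutation p = 0.0571, adjusted 0.228; rho 0.297, adjusted 0.736; 0.114 without the 2 farthest). With ACTG1 probes 2 and 3, r in LV was lower, 0.321 and 0.252 for RAC1 and 0.386 and 0.308 for VIM. In septum it was 0.573 and 0.668 for RAC1 and 0.586 and 0.583 for VIM. Under normexp, ACTG1 probe 1 in septum passed with VIM (r = 0.844, permutation adjusted p = 0.0238) and RAC1 (0.919, permutation adjusted p = 0.0165). Once the 2 compressed arrays were left out, these were 0.514 and 0.507 (permutation adjusted p = 0.399 each). ACTG1 and S100A4 had r = -0.189 in LV and 0.187 in septum (permutation adjusted p = 0.743 each; rho -0.152 and 0.152, adjusted 0.892), and with ACTG1 probes 2 and 3 the LV value was 0.285 and 0.246. RAC1 and S100A4 had r = 0.231 and 0.299 (permutation adjusted p = 0.743 each; rho -0.030 and 0.309, adjusted 0.945 and 0.736). The 8 relations of CFL1 lay between -0.072 and 0.449, the lowest adjusted permutation p being 0.478. They were not stable under the alternatives. ACTG1 and CFL1 in LV had r = 0.230 on ACTG1 probe 1 but 0.738 and 0.764 on probes 2 and 3 (permutation adjusted p = 0.0733 and 0.0614). CFL1 and RAC1 in septum had r = -0.766 under normexp (permutation adjusted p = 0.0495), and -0.039 once the 2 compressed arrays were left out.

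**Figure D5:**
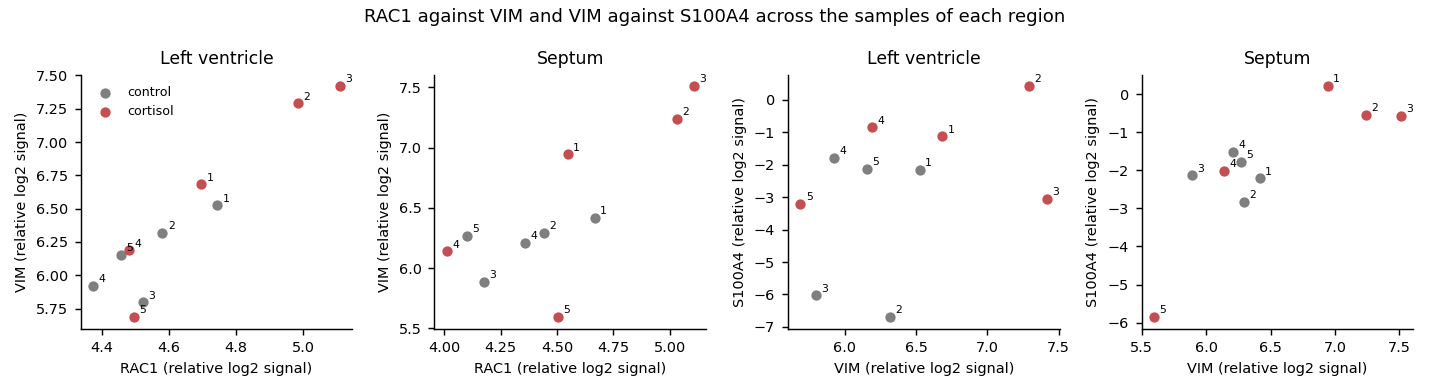
Relative log2 signal of VIM against RAC1 and of S100A4 against VIM, for the 10 LV and the 10 septum samples; grey is control, red cortisol, and digits are sample numbers. RAC1 and VIM rise together in LV (r = 0.938), with cortisol lambs 2 and 3 at the top right in both regions. S100A4 follows VIM in septum (r = 0.791) but less so in LV (0.394), with values not well above background included.

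Over all 20 arrays, after removal of group means, the named genes whose pattern was most like each member were sought among 588 named genes, as a description of arrays that share slides and scaling. ACTG1 was most like RGS2 (r = 0.940), CXCL8 (0.861) and NOS3 (0.846), and VIM was most like RAP2A (0.918), IGFBP6 (0.911) and IL13RA1 (0.906). For RAC1 these were ETBR (0.913), IRF2 (0.899) and IL13RA1 (0.871). IL13RA1, a cytokine receptor chain, was thus near both RAC1 and VIM. Among those of CFL1 were CYP17A1 (0.779) and PDIA5 (0.778), and S100A4 was most like CLDN1 (0.879), TGFB2 (0.702) and CAV1 (0.688). Between members, RAC1 and VIM had r = 0.782 by this measure, exceeded by 2.58% of the 10068 other probes for RAC1 and 2.86% for VIM, and ACTG1 and RAC1 had 0.539, exceeded by 7.56% and 17.3%. VIM and S100A4 had 0.499, exceeded by 20.8% of probes for VIM and 6.58% for S100A4. ACTG1 and VIM had 0.458, exceeded by 11.6% for ACTG1 and 23.7% for VIM.

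Of a wider list of 68 actin cytoskeleton genes, 9 could be named on the array and 8 were tested. In the cortisol comparison 7 of 8 lay above 0 in LV (median 0.25, against -0.01 over all probes) and 7 of 8 in septum (median 0.34, against 0.03), with 0 of 8 called in either. MYL6, a non-muscle myosin light chain, differed by 0.57 ± 0.33 in LV and 0.47 ± 0.28 in septum, and RHOA, a GTPase of stress fibres, by 0.17 ± 0.19 and 0.23 ± 0.19. MYL9, the smooth muscle myosin light chain, lay the other way at -0.56 ± 0.40 and -0.28 ± 0.23. Between the walls 3 of 8 lay above 0, where 54.9% of all tested probes did, with 0 called unpaired. In the paired fit CFL1 was the 1 gene of the 8 that was called, where 18.4% of all probes were. ACTB, cytoplasmic beta-actin, was named on a probe that was well above background on 2 of 20 arrays and was not tested, so gamma-actin could not be set beside it.

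Fibroblast markers had cortisol differences of the same sign as VIM and S100A4, and none passed the test. Of 16 such genes 6 were named and tested, and 6 of 6 lay above 0 in LV (median 0.36) and in septum (median 0.42). COL1A1, a chain of type I collagen, differed by 0.89 ± 0.44 in LV and 0.92 ± 0.44 in septum. The mean level of the 6 markers ranged from 0.05 to 0.41 in LV control, -0.71 to 1.26 in LV cortisol, -0.59 to -0.13 in septum control and -0.76 to 0.88 in septum cortisol, and all 6 were well above background on 20 of 20 arrays. Between the walls 1 of 6 lay above 0, and the paired limma fit called 3 lower in septum, COL3A1 by -1.34 ± 0.15 (adjusted p = 0.000658), COL1A2 by -1.10 ± 0.13 (adjusted p = 0.000862) and COL1A1 by -0.58 ± 0.13 (adjusted p = 0.0154), while DCN, decorin, differed by -0.03 ± 0.07. Over all probes that fit called 9.51% lower. The part of fibroblast content in the differences of VIM, S100A4 and CFL1 was not tested.

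Other cell markers were sparse. With cortisol the 3 endothelial markers PECAM1, KDR and TIE1 had medians of -0.13 in LV and -0.08 in septum, 5 tested monocyte and macrophage markers had medians of 0.22 and 0.32, and the 3 neutrophil markers had medians of -0.61 and -0.27. None of these was called for cortisol. In the paired fit between the walls KDR, a receptor of vascular growth factor, was lower in septum by -0.72 ± 0.11 (adjusted p = 0.00238), 1 called of 3 endothelial markers, and TYROBP, an adaptor of myeloid receptors, by -0.63 ± 0.18 (adjusted p = 0.0359), 1 called of 5 monocyte and macrophage markers. Over all probes that fit called 18.4%, and 9.51% lower. PECAM1 and TIE1 lay the other way at 0.14 ± 0.11 and 0.07 ± 0.11, as did 2 of the 5 monocyte and macrophage markers. The part of these cell types in the CFL1 difference was not tested. CNN1 was the only smooth muscle marker of 10 that could be named. In the intermediate filament list 4 of 18 genes were named, among which VIM was the brightest, KRT19 was above background on 0 of 20 arrays and LMNB1 on 10. S100A4 was the only 1 of 12 S100 genes that could be named.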

How the data were processed

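RNA of 20 samples was hybridised to one-colour Agilent sheep arrays. Per the submitters' processing notes, scanner output was made with Agilent Feature Extraction 10.1.1.1, and limma was named without a version. Per the file headers, the processed intensity is background-subtracted and detrended, and it is not normalized between arrays. Raw and local background intensity, deposited in the same files, were used for an alternative background correction (normexp, offset 50). The authors also deposited log2 intensity values of all samples, which were used as an alternative inside each region only, because array medians were 6.71 to 6.72 for LV but 9.49 to 9.54 for septum. No genome build was given in the sources used here, and 0 columns belonged to other samples.

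From the files, log2 processed intensity minus the 75th percentile of each array was computed, with outlier spots left out and spots averaged per probe. Probes well above background on at least 5 of 10 arrays of a region, or 10 of 20, were fitted with limma 3.58.1 in R 4.3.3 (statmod 1.5.0 and version 1.17.8 of data.table), with two-sided tests and Benjamini-Hochberg adjustment over all probes tested at 0.05. The fits were tested on simulated data with 200 changed probes. Of 100 probes changed by 1 log2 unit, 42 were called in the LV cortisol comparison, 39 in septum and 75 between the walls. Of 100 changed by 2 log2 units, 85, 85 and 94 were called. Both sizes were simulated together, with noise drawn independently for each probe and array. Lamb and slide were not simulated, so these shares need not hold for the real arrays. Main fits used the samples of the comparison, without a block. LV and septum arrays of 1 treatment and number were paired (see the correlations in the report), so region differences are also given with the lamb as a block. The SEs of RAC1, VIM, ACTG1 and S100A4 between the walls are from that paired fit. Correlations used 100000 resamples, or exact enumeration for 6 arrays, in Python 3.11.15 with numpy 2.4.6, scipy 1.17.1 and pandas 2.3.3; figures used matplotlib 3.10.9.

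Of 15008 probes 1594 (10.6%) were named: 704 by RefSeq accession, 484 by symbol, 125 by gene identifier, 40 by description, 20 by synonym, and 221 by the files' own name alone, with symbols from ARS-UI_Ramb_v3.0. ACTG1 probes 1 and 2 were named by gene identifier and probe 3 by description. A gene was represented by its brightest probe over 20 arrays. The members and lists were chosen with earlier results of these data known. Named genes were the members, the 3 named genes most like each (1 of those of CFL1 is not reported here), and members of the lists; the MYL6, MYL9, RHOA and COL1A1 values given are examples chosen after their values were seen. Coordinates were not used.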

Additional observations from a re-analysis of the deposited data

How the results depend on the processing

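Across 1260 recomputed values of 55 results, 1131 were scored as unchanged. For differences and correlations this means the same sign and the same side of the threshold, by unadjusted p for correlations with 1 array left out. For counts of calls it means a count of similar size. The cortisol differences of the members had not passed, so for them it means only that the sign held and that they still did not pass. In the cortisol comparison of LV 0 probes passed under each of 22 alternatives. CFL1 in LV turned to -0.27 with slide as a fixed block, -0.018 with slide as a random block, -0.98 on slide 2 alone, -0.082 on probe 2 and -0.0096 on the mean of its probes, and to between -0.22 and 0.31 when 1 array was left out. On slide 2 alone ACTG1 was -0.12 and VIM -0.29 in LV, and VIM -0.21 and S100A4 -1.98 in septum. In septum, leaving out both arrays that normexp compressed gave 2 called probes with normexp and 1 with the processed signal, none of them a member, and S100A4 at -0.0089 with the latter; leaving out 1 array gave S100A4 at -0.15 to 1.37. Averaged over regions, the same omission gave 2 called probes with either signal. These and the other alternatives without the compressed arrays, the S100A4 values over arrays well above background, leave-one-out correlations, correlations of the other ACTG1 probes and every alternative to the paired region fit were chosen after seeing the data. The cause of the changes was not tested.

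The 40 calls between septum and LV became 1 with normexp, 12 and 2 (normexp and processed signal) without the compressed arrays, 99 over all probes, 79 over probes detected on every array, 0 with slide fixed, 2 with slide random, 0 on slide 2 alone, 136 in control lambs, 0 in cortisol lambs, 1850 with the lamb as a block, and 9 to 420 with 1 array left out. There ACTG1 was -0.14 and VIM -0.18 with normexp, ACTG1 -0.029 with slide fixed, S100A4 -0.17 under normexp without the compressed arrays and -0.19 in cortisol lambs, and leaving out 1 array gave -0.028 to 0.20 for ACTG1 and -0.069 to 0.19 for VIM. The 1850 paired calls became 8 with normexp, 3864 and 902 without the compressed arrays (then ACTG1 at 0.26 passed with normexp, adjusted p = 0.0379), 0 among lambs of slide 2, 0 among cortisol lambs and 1153 to 2359 without 1 lamb. Paired, ACTG1 was -0.14 and VIM -0.18 with normexp, VIM -0.0039 in processed signal and S100A4 -0.12 in normexp without the compressed arrays, and S100A4 -0.26 on slide 2 and -0.19 in cortisol lambs. The cortisol effect compared between regions stayed at 0 calls, with RAC1 at -0.066 under normexp, ACTG1 at -0.15, -0.21 and -0.074 on probe 2, probe 3 and their mean, and, with 1 array left out, ACTG1 at -0.11 to 0.34, RAC1 at -0.041 to 0.23 and VIM at -0.28 to 0.23.

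The replicate block on numbers shared by control and cortisol samples raised the region calls to 382 and left the cortisol comparisons at 0. Such numbers correlated above 0.1 in 4 of 5 LV and 3 of 5 septum pairs. The own number was best in 3 of 5 each. They join different lambs, but the control and cortisol samples numbered 1, 2 and 5 shared a slide in LV and in septum. The part of slide in these correlations was not tested. CFL1 passed between regions under that block (adjusted p = 0.0435) and without LV cortisol sample 5 (adjusted p = 0.0381).

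The 2 relations that passed became 0 with treatment means removed, 1 with slide means removed, 5 with normexp, 0 within a slide, and 0 and 1 (normexp and processed signal) without the compressed arrays. RAC1 with S100A4 in LV was -0.021 with treatment means removed and -0.013 to 0.374 without 1 array, and in septum -0.113 with slide means removed and -0.471 with normexp. In septum under normexp ACTG1 with S100A4 was -0.419, VIM with S100A4 -0.149, and without 1 array the former was -0.080 to 0.369. ACTG1 with S100A4 in LV was 0.285 and 0.246 on probes 2 and 3. Agreement between the walls kept 3 to 4 genes under its alternatives.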
